A study of Mus musculus with 12 samples.

Results

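Immediate early genes are the subject here: Fos, Fosb, Junb, Egr1, Egr2, Egr4, Arc, Npas4, Nr4a1 and Btg2, in the brains of Shank2-mutant and WT mice given memantine or vehicle. They were taken by symbol from the deposited expression table, and all 10 were found among its 19312 genes. The rule used gene names and no measured value, although the genes were chosen with earlier results of these data known. All 10 passed the filter on low values, a mean normalized count of at least 10, in every comparison.

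Immediate early genes are transcribed within minutes of neuronal firing, from transcription factors already present in the nucleus, and their mRNAs are short-lived. In forebrain neurons, calcium entering through NMDA receptors and voltage-gated channels activates kinases that phosphorylate CREB at cAMP response elements, and SRF with its partners at CArG boxes, and both kinds of site are known in these genes. Their mRNA therefore follows what an animal did and sensed shortly before its brain was taken, and memantine blocks the open channel of the NMDA receptor.

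RNA was sequenced from 12 male C57BL/6N mice at postnatal day 25, with 3 mice in each of 4 groups and no pooling of brains. Shank2-KO mice lacked exons 6 and 7 on both alleles of Shank2, which encodes an excitatory postsynaptic scaffold, in every cell. Memantine (20 mg/kg) or vehicle (0.1% saccharin) was pipetted into the mouth 2 times daily between postnatal days 7 and 21, so dosing had ended before the brains were taken. The groups are vehicle-treated WT (WT-Veh), memantine-treated WT (WT-Mem), vehicle-treated KO (KO-Veh) and memantine-treated KO (KO-Mem). All mice were under isoflurane when the brain was removed, and the hour of collection and the handling before it were not given in the sources used here. The labels name the tissue as whole brain, whereas the methods describe the forebrain left after removal of the cerebellum and the brain stem beneath it.

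The values are normalized counts. The median of each mouse's values near 1, used as a stand-in for the value of 1 read, was 0.874 to 1.13. The lowest value of any of the 10 genes in any mouse was 105, for Egr2. Relative depth was taken from the median of the values near 1 and ranged from 0.89 to 1.15 of the mean. Because only values near 1 entered, that median could lie only near 1, and depth was not measured directly. Shank2 itself had 7156 to 8548 normalized counts in the 6 WT mice and 2706 to 3178 in the 6 KO mice, without overlap between genotypes. Excitatory neuron, inhibitory neuron and striatal neuron markers were all present in every mouse. KO-Veh replicate 3 stood apart in its cerebellar markers: all 7 were highest in that mouse, and their summed level was 5923 normalized counts, against 2747 to 2969 in the other 11 mice. Gabra6, a GABA receptor subunit of cerebellar granule cells, had 254 normalized counts in that mouse and at most 12.9 elsewhere, with a value of 0 in 6 of the mice. Because the mouse is also among the lowest for immediate early genes, comparisons of the 10 genes that use it, and the calls in the other gene lists over both treatments, are given with and without it. Calls among cell type markers are given only with it. Other mice also stood at the ends of marker lists. All 6 oligodendrocyte markers were highest in WT-Veh replicate 3 and lowest in KO-Mem replicate 1, at summed levels of 407701 and 237444. All 5 red blood cell markers were lowest in KO-Mem replicate 1 too. The part of these differences in the levels of the 10 genes was not tested.

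Promoter sequences were searched for short motifs. RefSeq windows of 300 bases (250 before and 50 after a start, GRCm38.p6) were at hand for 8 of the 10 genes, all but Arc and Egr1. The core of the cAMP response element, TGACG or its reverse complement CGTCA, was present in a window of 8 of these 8 genes and in a window of 23.0% of the 27025 genes in the promoter table. The full palindrome TGACGTCA, which contains the core, was found in 1 of the 8 (Btg2) and in 2.03% of those genes. The CArG box was found in 1 of the 8 (Egr2) and in 1.81% of those genes, and a TATA box on the gene's own strand in 4 (Fos, Junb, Egr4 and Npas4) and in 14.6%. Matches are letters in these windows only and were not tested for binding. The promoters of 5 genes with different roles and different spread between mice are printed 5′ to 3′ on the gene's strand, with cAMP response element cores, the full element and CArG boxes in capitals. They are the Fos window at chr12:85473640-85473939 (plus strand), Egr2 at chr10:67537619-67537918 (plus), Nr4a1 at chr15:101266596-101266895 (plus), Npas4 at chr19:4989922-4990221 (minus) and Btg2 at chr1:134079106-134079405 (minus).
Fos: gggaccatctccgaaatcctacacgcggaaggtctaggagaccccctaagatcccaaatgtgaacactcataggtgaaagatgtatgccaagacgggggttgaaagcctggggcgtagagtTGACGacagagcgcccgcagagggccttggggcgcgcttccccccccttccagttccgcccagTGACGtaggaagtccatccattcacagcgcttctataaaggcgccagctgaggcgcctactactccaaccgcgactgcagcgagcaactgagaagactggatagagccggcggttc
Egr2: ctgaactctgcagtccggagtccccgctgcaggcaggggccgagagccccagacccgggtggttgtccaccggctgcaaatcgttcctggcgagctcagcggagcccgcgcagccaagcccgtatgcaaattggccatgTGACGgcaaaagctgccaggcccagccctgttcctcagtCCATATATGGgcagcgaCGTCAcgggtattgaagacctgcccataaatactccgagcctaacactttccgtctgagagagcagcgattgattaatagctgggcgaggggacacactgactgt
Nr4a1: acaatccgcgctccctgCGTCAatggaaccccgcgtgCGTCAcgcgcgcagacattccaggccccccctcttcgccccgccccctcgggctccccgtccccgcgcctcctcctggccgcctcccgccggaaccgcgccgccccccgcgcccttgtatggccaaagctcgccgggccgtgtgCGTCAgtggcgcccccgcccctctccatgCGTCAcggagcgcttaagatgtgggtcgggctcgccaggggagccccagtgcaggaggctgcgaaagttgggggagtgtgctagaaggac
Npas4: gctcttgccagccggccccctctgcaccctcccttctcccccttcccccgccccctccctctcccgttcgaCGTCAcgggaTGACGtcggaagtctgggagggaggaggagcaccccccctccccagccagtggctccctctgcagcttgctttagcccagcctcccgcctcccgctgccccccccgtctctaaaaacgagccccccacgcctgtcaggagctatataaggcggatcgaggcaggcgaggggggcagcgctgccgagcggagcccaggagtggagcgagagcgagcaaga
Btg2: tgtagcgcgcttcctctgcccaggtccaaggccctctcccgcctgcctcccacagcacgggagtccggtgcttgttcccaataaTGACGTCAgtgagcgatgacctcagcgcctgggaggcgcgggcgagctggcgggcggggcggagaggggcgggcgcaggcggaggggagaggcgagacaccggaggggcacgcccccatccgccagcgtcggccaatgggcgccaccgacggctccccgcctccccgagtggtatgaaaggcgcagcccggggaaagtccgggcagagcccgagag
Nr4a1 held 4 cores, Fos, Egr2, Npas4 and Btg2 held 2 each (in Btg2 both strands of the full element), and the Egr2 window also held the CArG box CCATATATGG.

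The AP-1 members bind AP-1 sites as dimers, in which Fos-family proteins pair with Jun-family proteins. Fos (ENSMUSG00000021250, chr12:85473890-85477273, 4 exons) had normalized counts of 594, 961 and 1332 in WT-Veh replicates 1 to 3, 1071, 1177 and 1070.4 in WT-Mem, 992, 726 and 335 in the vehicle-treated KO mice and 447, 619 and 913 in KO-Mem. All 3 WT-Mem mice were above all 3 KO-Mem mice, while WT-Veh and KO-Veh overlapped widely. Fosb (ENSMUSG00000003545, chr7:19302696-19310051), whose stable splice form accumulates with repeated stimulation, had 188, 263 and 337 in WT-Veh, 323, 402 and 334 in WT-Mem, 296, 208 and 123 in the vehicle-treated KO mice and 201, 299 and 249 in KO-Mem. Again the 3 WT-Mem mice lay above every KO-Mem mouse. Junb (ENSMUSG00000052837, chr8:84974484-84978718, 1 exon), the Jun-family partner of Fos proteins, had 872, 1426 and 2386 in WT-Veh, 1650.2, 1687 and 1666 in WT-Mem, 1732, 1377 and 761 in the vehicle-treated KO mice and 1153, 1289 and 1598 in KO-Mem. The WT-Mem mice differed by 1.02-fold from lowest to highest and the WT-Veh mice by 2.73-fold.

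The EGR members encode zinc-finger transcription factors of one family. Egr1 (ENSMUSG00000038418), on chromosome 18, had the highest mean count of the 10 genes over the 12 mice, although Arc was above it in WT-Veh replicate 3, at 7760.2, 10119 and 10356 in WT-Veh, 11100.3, 9894 and 11205 in WT-Mem, 9589.6, 7935 and 5058 in the vehicle-treated KO mice and 4588, 7131 and 10194 in KO-Mem. KO-Mem replicate 3 was inside the WT-Mem range, and the other KO-Mem mice were below it. Egr2 (ENSMUSG00000037868, chr10:67535475-67542188), which outside neurons is needed for Schwann cell myelination, had 207, 316 and 496 in WT-Veh, 492, 367 and 491 in WT-Mem, 401, 303 and 157 in the vehicle-treated KO mice and 105, 196 and 419 in KO-Mem. The KO-Mem mice differed by 3.97-fold, the widest range of this gene in any group. Egr4 (ENSMUSG00000071341, chr6:85511121-85513589) had 907, 1102 and 1175 in WT-Veh, 1233, 1246 and 1381 in WT-Mem, 1076, 955 and 593 in the vehicle-treated KO mice and 652, 843 and 1112 in KO-Mem. Egr4 varied the least of the 10 genes, by 2.33-fold over all 12 mice, and each WT-Mem mouse was above every mouse of the other 3 groups.

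Npas4 and Nr4a1 encode transcription factors of other families. Npas4 (ENSMUSG00000045903, chr19:4984355-4990316, 8 exons), a bHLH-PAS factor that responds to calcium entry and acts on inhibitory synapse number, had 431, 684 and 1195 in WT-Veh, 789, 1007 and 473 in WT-Mem, 714, 658 and 288 in the vehicle-treated KO mice and 460.0, 566 and 736 in KO-Mem. No pair of groups was separate for this gene. Nr4a1 (ENSMUSG00000023034, chr15:101254269-101274795, 8 exons), an orphan nuclear receptor, had 1306, 3014 and 4219 in WT-Veh, 3794, 3251 and 3099.8 in WT-Mem, 3466, 2242 and 1187 in the vehicle-treated KO mice and 1425, 1942 and 2734 in KO-Mem. Here too the WT-Mem mice were above all KO-Mem mice, and WT-Veh spanned nearly the whole range of the 12 mice.

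Arc and Btg2 are not DNA-binding transcription factors. Arc (ENSMUSG00000022602, chr15:74669083-74672570, 3 exons), which drives AMPA receptor endocytosis and whose mRNA travels into dendrites, had 2598, 6948 and 11896 in WT-Veh, 9857, 6779 and 7415 in WT-Mem, 6213, 4195 and 1403 in the vehicle-treated KO mice and 1310.1, 2528 and 4874 in KO-Mem. Its values differed by 9.08-fold between the highest and the lowest mouse, the widest range of the 10 genes, and by 4.58-fold among the WT-Veh mice alone. Btg2 (ENSMUSG00000020423, chr1:134075170-134079120, 2 exons), an antiproliferative partner of the mRNA deadenylation machinery, had 246, 368 and 619.5 in WT-Veh, 414, 738 and 378 in WT-Mem, 471, 507 and 300.1 in the vehicle-treated KO mice and 386, 379.9 and 449 in KO-Mem. Btg2 was the only member lowest in a WT mouse, WT-Veh replicate 1, and its 4 groups overlapped throughout.

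**Figure D1:**
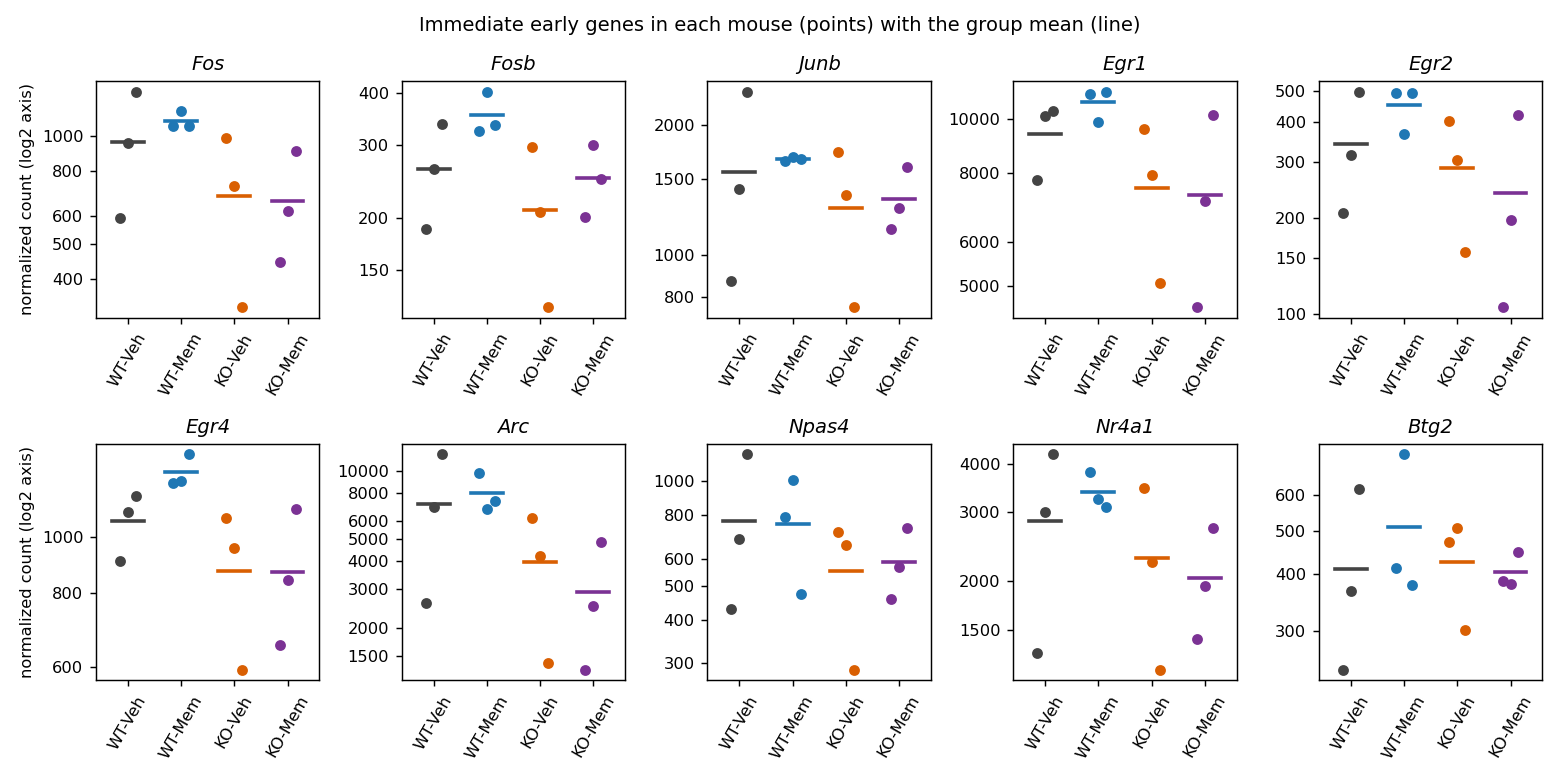
Normalized counts of the 10 immediate early genes in each mouse (points; log2 axes that differ between panels) with the mean of each group of 3 mice (lines). The WT-Mem points lie close together for most genes, and KO-Veh and KO-Mem reach the lowest values for every gene but Btg2.

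Levels of different genes were compared per kilobase of the principal transcript. Egr1 (1950 ± 500.1 normalized counts per kb, SD over 12 mice) and Arc (1801 ± 1088) were highest, and Arc was below Egr1 in only 8 of the 12 mice. Nr4a1 (1034 ± 396), Junb (811 ± 238), Egr4 (476 ± 112) and Fos (405 ± 146) followed, each below its neighbour in 10 to 12 mice. Npas4 (184 ± 70.0), Btg2 (160 ± 49.2), Egr2 (111 ± 46.4) and Fosb (71.0 ± 20.8) were lowest. Npas4 and Btg2 changed places in 4 of the 12 mice, so their order, like that of Egr1 and Arc, was within the spread between mice.

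The 10 genes varied widely between mice of the same group. Pooled over the 4 groups, the within-group SD of the log2 values ran from 0.32 (Egr4) to 0.93 (Arc), with a median of 0.53 over the 10 genes, against a median of 0.15 over 17655 genes tested and 0.12 over the 12877 genes whose mean reached 100. Among those 12877 genes, the members lay between the 96.9th percentile (Egr4) and the 99.8th (Arc). The share of the variance between mice that lay between the 4 groups was 35.6% for the median member and 37.3% for the median gene, and it ran from 9.93% (Btg2) to 48.2% (Egr4).

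**Figure D2:**
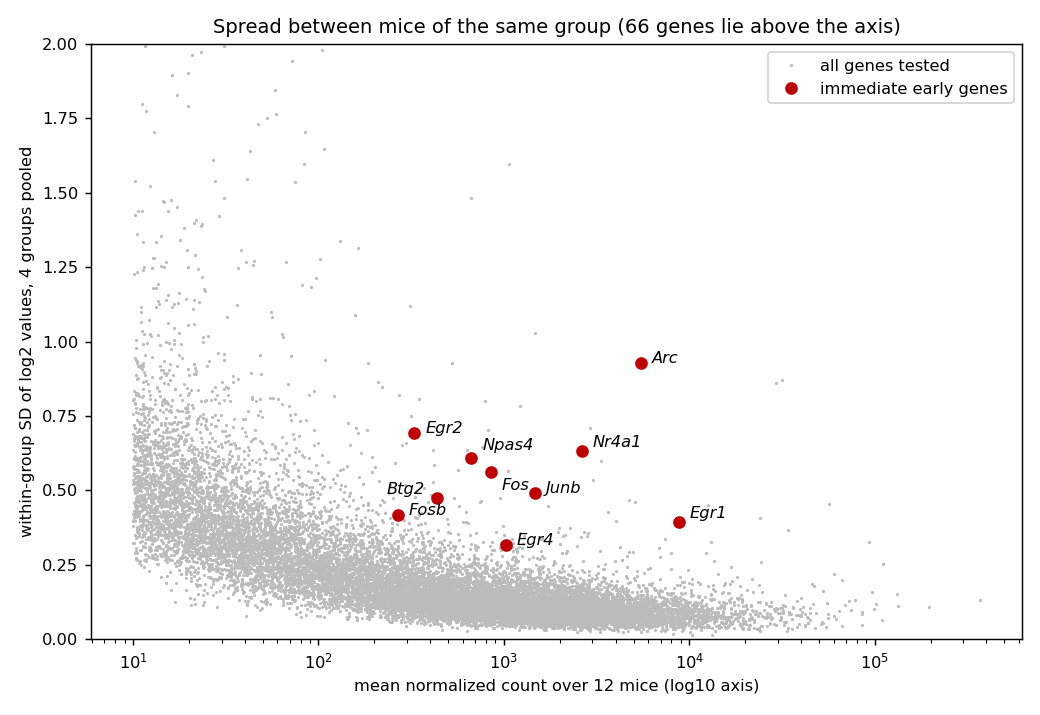
Within-group SD of the log2 values (vertical axis, 4 groups pooled) against the mean normalized count over 12 mice (log10 axis) for 17655 genes (grey) and the 10 immediate early genes (red). The 10 genes lie above the bulk of genes with like counts, with Arc at 0.93 and Egr4 at 0.32.

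The groups differed in this spread. WT-Mem had the smallest SD of the 4 groups for 8 of the 10 genes, all but Npas4 and Btg2, for which KO-Mem had it, and WT-Mem had the smallest SD for 25.9% of all genes tested. The median member SD on the log2 scale was 0.16 in WT-Mem, 0.43 in KO-Mem, 0.65 in WT-Veh and 0.66 in KO-Veh, whereas the median over all genes was between 0.11 and 0.14 in every group. With 3 mice a group an SD is imprecise, and the difference in spread was not tested.

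The same mice were high or low for most members. Averaged over the 10 genes, WT-Veh replicate 3 was 0.69 above the mean of the 12 mice on the log2 scale, and WT-Veh replicate 1 was at -0.53. In WT-Mem the deviations were 0.45, 0.49 and 0.32. In KO-Veh they were 0.29, -0.04 and -0.99, and in KO-Mem -0.75, -0.28 and 0.19. Each group except WT-Mem thus held both a mouse above the mean of all mice and a mouse below it. KO-Veh replicate 3 was among the lowest 3 mice for all 10 genes (25.5% of all genes tested) and KO-Mem replicate 1 for 9 (35.7%). WT-Veh replicate 3 was the highest mouse for 6 members (15.1% of all genes).

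**Figure D3:**
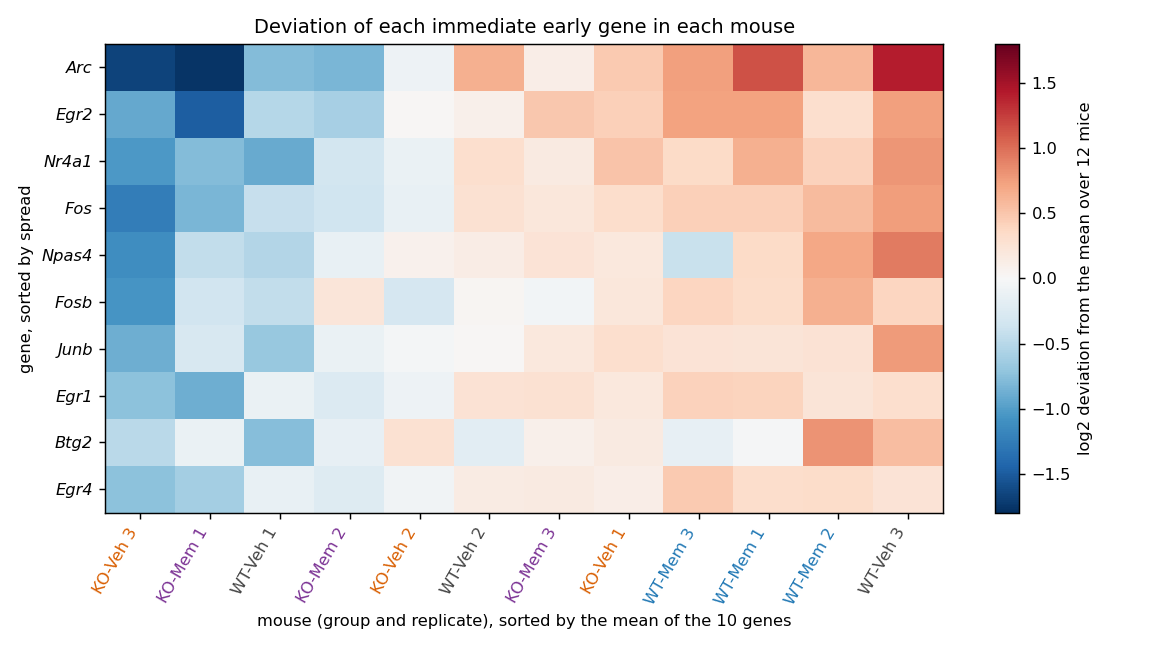
Deviation of each immediate early gene (rows, log2 scale, from its mean over 12 mice) in each mouse (columns, sorted by the mean of the 10 genes). KO-Veh replicate 3 and KO-Mem replicate 1 are blue for every gene, and WT-Veh replicate 3 is red for every gene.

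Members moved together from mouse to mouse. Over the 45 pairs and 12 mice, Pearson's r of the log2 values ran from 0.423 to 0.973 with a median of 0.851, and Spearman's rho from 0.287 to 0.958 with a median of 0.825. Permutation tests with Benjamini-Hochberg adjustment over the 45 pairs gave p under 0.05 for 41 pairs by r and 40 by rho. Without the 2 mice farthest from the median of the first gene of a pair, r ran from 0.326 to 0.954 with a median of 0.742. The highest r was between Egr1 and Egr4 (0.973), and the lowest was between Egr1 and Btg2 (0.423, rho 0.287, adjusted permutation p = 0.171 and 0.365). The relation held within groups, since r of the deviations from the group means had a median of 0.866. Fos followed the other 9 genes most closely (r = 0.987) and Btg2 least (r = 0.671). Because the members moved together, the counts of members in the comparisons below are not counts of independent results.

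Veh-K/W compared KO-Veh with WT-Veh, the baseline difference between genotypes. The group mean was lower in KO-Veh for 9 of the 10 genes and higher for Btg2, and the median log2 fold change of the members was -0.34 (all genes 0.00). No member passed limma's test at an adjusted p of 0.05, which 0.0283% of 17671 genes did. None had an unadjusted p under 0.05 (14.4% of all genes), and for none were the groups separate (20.4%). Arc was at 7147 ± 4652 (SD, n = 3) in WT-Veh and 3937 ± 2415 in KO-Veh, a log2 fold change of -0.85 ± 0.57 (SE, limma adjusted p = 0.512, 95% interval -2.11 to 0.41). The smallest adjusted p was that of Egr1 (-0.36 ± 0.20, limma adjusted p = 0.427). Without KO-Veh replicate 3, the mouse with cerebellar markers, the median was -0.04, with 6 genes lower and 4 higher, so the lower mean of KO-Veh rested largely on that mouse. Without WT-Veh replicate 3 the median was -0.13, and without WT-Veh replicate 1 or KO-Veh replicate 1 it was -0.60.

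Mem-K/W compared KO-Mem with WT-Mem, the genotype difference under memantine. All 10 genes had a lower mean in KO-Mem, and the median log2 fold change was -0.61 (all genes 0.00). None passed limma's test after adjustment (0.068% of 17646 genes did). At an unadjusted p under 0.05, 8 of the 10 were lower, all but Npas4 and Btg2 (21.0% of all genes in either direction). The mice of the 2 groups did not overlap for 6 members, each lower in KO-Mem, namely Fos, Fosb, Junb, Egr4, Arc and Nr4a1 (26.2% of all genes in either direction). Arc had the widest gap, with 8017 ± 1625 (SD, n = 3) in WT-Mem and 2904 ± 1811 in KO-Mem, a log2 fold change of -1.65 ± 0.37 (SE, limma adjusted p = 0.0884). Egr2 followed at -1.11 ± 0.39 (limma adjusted p = 0.154), although KO-Mem replicate 3 lay inside the WT-Mem range. Fos was at -0.80 ± 0.20 (0.0985) and Nr4a1 at -0.78 ± 0.19 (0.0957), with limma's adjusted p in parentheses. Egr1 had -0.63 ± 0.22, Egr4 -0.60 ± 0.16 and Fosb -0.51 ± 0.16, with limma's adjusted p at 0.156, 0.107 and 0.131. Junb and Npas4 were both at -0.32 (SE 0.11 and 0.25), and Btg2 was at -0.27 ± 0.22.

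Leaving out a single mouse changed the calls in Mem-K/W. Without KO-Mem replicate 3, the highest KO-Mem mouse for 9 of the 10 genes, 7 members passed limma's test (Fos, Junb, Egr1, Egr2, Egr4, Arc and Nr4a1), but so did 10.8% of all genes tested. Leaving out any other mouse gave 0 calls among the members, and the median log2 fold change then ran from -0.65 to -0.39. Markers of other cell types also differed between these 6 mice, among which 21.0% of all genes had an unadjusted p under 0.05 from limma. The 6 oligodendrocyte markers summed to 294380 to 345277 normalized counts in WT-Mem and 237444 to 280479 in KO-Mem, with 5 of the 6 lower at an unadjusted p under 0.05. The 5 red blood cell markers summed to 13301 to 14809 and 5626 to 12528, with 4 of the 5 lower. The 6 astrocyte markers summed to 34050 to 35228 and 32021 to 33129, and the 6 microglia markers to 5754 to 6154 and 4536 to 5355. In each list 4 of the 6 were lower, and the sums did not overlap. Sums were also separate for oligodendrocyte precursor markers (14159 to 14586 in WT-Mem and 10193 to 12116 in KO-Mem). The same held for pericyte and smooth muscle markers (4308 to 4885 and 3295 to 3636) and thalamic markers (7821 to 8076 and 7052 to 7617). Cerebellar markers went the other way, at 2848 to 2898 and 2902 to 2969. Not every marker was lower: Slc1a3, the most abundant astrocyte marker, had 15125, 14927 and 13658 in WT-Mem and 16533, 17112 and 14664 in KO-Mem. The microglia marker C1qa had 511, 483 and 566 in WT-Mem and 605, 570 and 456 in KO-Mem. None of these markers had a value of 0. Excitatory neuron markers summed to 156067 to 168919 in WT-Mem and 154014 to 156537 in KO-Mem, with 2 of the 7 lower. Their part in the result was not tested. In bulk tissue, fewer cells of a type and less RNA per cell cannot be told apart.

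KO-M/V compared memantine with vehicle within KO mice. The mean log2 values of the members were evenly split, with 5 lower and 5 higher in KO-Mem and a median log2 fold change of -0.02. None passed limma's test (0.0% of 17707 genes), none had an unadjusted p under 0.05 (8.88% of all genes), and none separated the groups (13.9%). The estimates were wide: Fos was at 0.02 with a 95% interval of -0.82 to 0.86, Arc at -0.39 (-1.66 to 0.87) and Egr4 at 0.00 (-0.53 to 0.54). The direction followed the mice included. All 10 were lower in KO-Mem without KO-Veh replicate 3 (median -0.30), and 9 were higher without KO-Mem replicate 1 (median 0.21).

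WT-M/V compared memantine with vehicle within WT mice. All 10 genes had a higher mean log2 value in WT-Mem, with a median log2 fold change of 0.32. None passed limma's test after adjustment (0.0114% of 17564 genes). Egr4 (0.28 ± 0.10, SE) and Fosb (0.46 ± 0.19) had an unadjusted p under 0.05, as did 3.97% of all genes, and the limma adjusted p of each was 0.978. Egr4 was the only member with separate groups (9.34% of all genes), at 907 to 1175 in WT-Veh and 1233 to 1381 in WT-Mem. Without WT-Veh replicate 1, the lowest WT mouse, the median was 0.00 with 5 genes on each side, and without WT-Veh replicate 3 it was 0.62. Npas4 was at 0.03 ± 0.34, the smallest estimate.

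The crossed comparisons contrasted groups that differ in both genotype and treatment. In KO-M/WT-V (KO-Mem against WT-Veh), the mean log2 value was lower for 9 genes and higher for Btg2, with a median difference of -0.35, and no member passed limma's test although 3.37% of 17662 genes did. Arc alone had an unadjusted p under 0.05 (25.9% of all genes), at -1.24 ± 0.53 (SE, limma adjusted p = 0.174), and no member had separate groups (31.1%). Without KO-Mem replicate 3, Egr1 and Egr4 passed the test, as did 14.1% of all genes. In WT-M/KO-V (WT-Mem against KO-Veh) all 10 genes were higher in WT-Mem, with a median of 0.64. None passed limma's test (0.0227% of 17648 genes), 7 had an unadjusted p under 0.05 (8.94% of all genes) and 5 had separate groups, namely Fos, Fosb, Egr1, Egr4 and Arc (14.9%). Fosb was at 0.84 ± 0.26 (SE, limma adjusted p = 0.464) and Arc at 1.25 ± 0.42 (limma adjusted p = 0.493). Without KO-Veh replicate 3 the median was 0.32. These comparisons share mice with the others, so they are not separate evidence.

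Over both treatments, with all 12 mice in 1 fit, all 10 genes had a lower mean in KO than in WT mice, with a median log2 fold change of -0.48 (all genes 0.00). No member passed limma's test, although 10.8% of 17655 genes did, and 6 had an unadjusted p under 0.05 (29.5% of all genes). Egr4 came nearest at -0.46 ± 0.14 (SE, limma adjusted p = 0.0532), followed by Arc at -1.25 ± 0.40 (0.0578) and Egr1 at -0.49 ± 0.17 (0.0733). Fos was at -0.68 ± 0.24 (limma adjusted p = 0.0796) and Egr2 at -0.68 ± 0.32 (limma adjusted p = 0.162). Fosb was at -0.44 ± 0.19, Nr4a1 at -0.53 ± 0.28, Npas4 at -0.39 ± 0.26 and Junb at -0.28 ± 0.21. Btg2 was near 0 at -0.07 ± 0.21 (limma adjusted p = 0.845). For every member the 6 KO mice and the 6 WT mice overlapped. Calls appeared when single mice were left out: 4 without WT-Veh replicate 1, 5 without KO-Veh replicate 1, 1 without KO-Veh replicate 2 and 4 without KO-Mem replicate 3, while 10.9%, 7.75%, 12.4% and 15.2% of all genes passed in those fits. Leaving out any of the other 8 mice gave 0. Without KO-Veh replicate 3 the median was -0.37, and 4 members had an unadjusted p under 0.05. Marker genes of cells differed between the genotypes as well. Called lower in KO mice were 5 of 6 oligodendrocyte, 4 of 5 red blood cell and 4 of 6 endothelial markers. Of the neuron markers, 1 of 7 excitatory (Nrgn), 2 of 6 upper cortical layer and 2 of 6 thalamic markers were called lower. Of 7 inhibitory neuron markers, 2 were called lower (Pvalb and Lamp5) and 2 higher (Vip and Gad2). Of 7 hippocampal markers 1 was called higher (Wfs1), and no striatal or deep cortical layer marker was called. These marker calls include KO-Veh replicate 3 and were not repeated without it. The part of these markers in the levels of the 10 genes was not tested.

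Over both genotypes, the mean log2 value was higher with memantine for all 10 genes, with a median difference of 0.15, and no member passed limma's test (0.0% of 17655 genes) or had an unadjusted p under 0.05 (8.6% of all genes). Fosb came nearest at 0.39 ± 0.19 (SE, limma adjusted p = 0.579), and Arc was at 0.00 ± 0.40. The median was -0.02 without KO-Veh replicate 3 and -0.01 without WT-Veh replicate 1. The interaction, Mem-K/W minus Veh-K/W, was below 0 for 9 of the 10 genes, with a median of -0.28. None passed limma's test (0.0% of 17655 genes) or had an unadjusted p under 0.05 (4.76% of all genes). Egr2 was at -0.86 ± 0.61 and Arc at -0.79 ± 0.81, each with an interval that included 0 (limma adjusted p = 0.947 and 0.953). Without KO-Veh replicate 3 the median of the interaction was -0.58, and without WT-Veh replicate 1 it was -0.04. The larger gap between genotypes under memantine was therefore not shown to differ from that under vehicle.

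**Figure D4:**
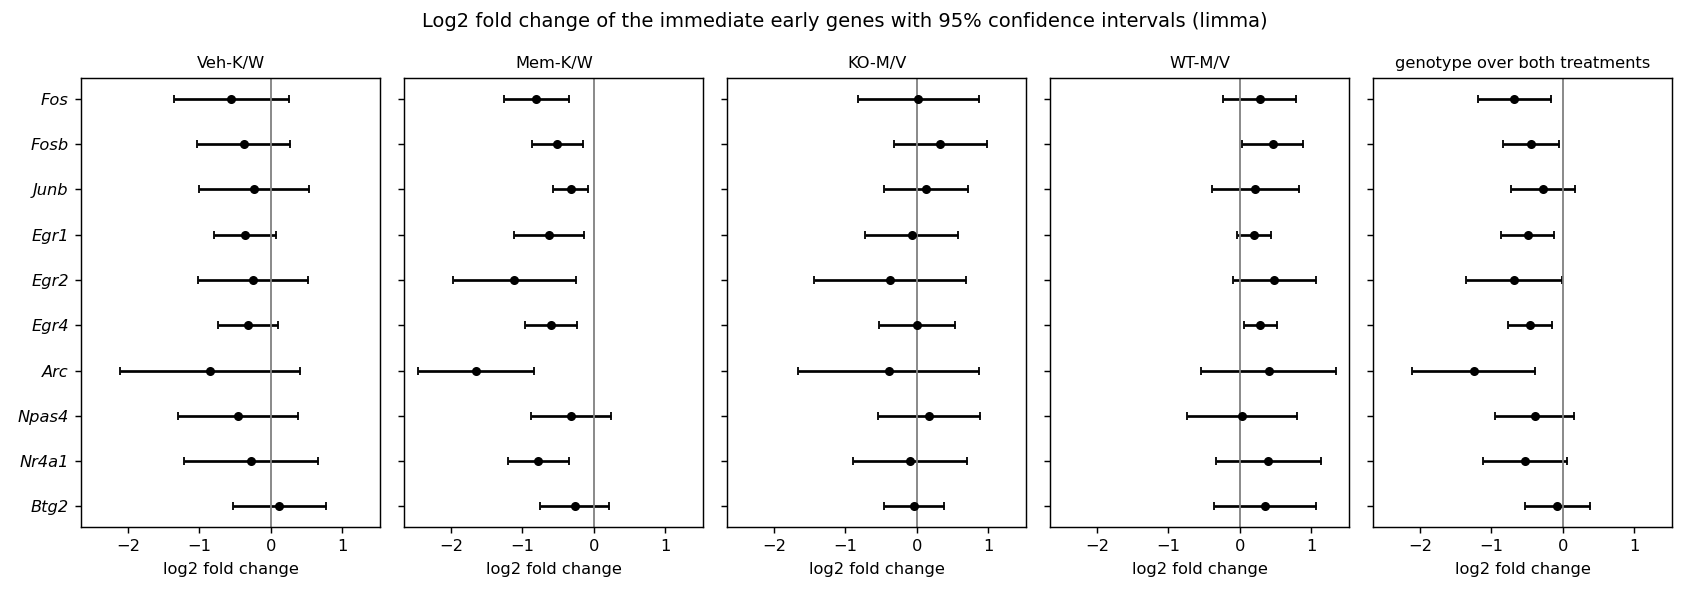
Log2 fold changes of the 10 immediate early genes (points) with 95% confidence intervals (bars) from limma in 4 pairwise comparisons of 6 mice and in the fit of genotype over 12 mice. In Mem-K/W 8 intervals lie below 0, and in Veh-K/W and KO-M/V every interval includes 0.

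Other early response genes were described from lists, to see how far the pattern of the 10 genes reached. Likeness was measured as Pearson's r over 12 mice between the log2 values of a gene and the mean z-score of the 10 genes. The members' own r had a median of 0.923, since they make up the score, and over all 17655 genes the median was 0.00 and 0.385% were above 0.8. Of 22 other early transcription factor genes, 2 were above 0.8, with a median of 0.322. Of 30 early genes that encode signalling, RNA-binding or synaptic proteins, 9 were above 0.8, with a median of 0.642. Ier2 (0.953), a nuclear protein induced with Fos, and Dusp6 (0.936), the phosphatase that switches off ERK, came highest in the 2 lists, and both were singled out after their values were seen. Ier2 was at 250 ± 120 normalized counts (SD, n = 3) in WT-Veh, 289 ± 30.6 in WT-Mem, 224 ± 86.3 in KO-Veh and 207 ± 42.8 in KO-Mem. Dusp6 was at 2138 ± 413, 2412 ± 210.3, 1710.4 ± 506 and 1599 ± 502 in the same order of groups.

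Several of these genes passed the test that the 10 members missed. Over both treatments, 3 of the 22 other transcription factor genes were called lower in KO mice, and none was called higher. At an unadjusted p under 0.05 from limma, 6 were lower and 1 was higher, beside 29.5% of all genes in either direction. Ier5, a regulator of the heat shock response, fell by 0.68 on the log2 scale (SE 0.12, limma adjusted p = 0.00773), with 1463 to 1784 normalized counts in WT-Veh, 1387 to 1932 in WT-Mem, 854 to 1241 in KO-Veh and 797 to 1312 in KO-Mem. Fosl2, a Fos-family member, fell by 0.48 (SE 0.12, limma adjusted p = 0.0245), and Nr4a2, the nuclear receptor related to Nr4a1, fell by 0.26 (SE 0.07, limma adjusted p = 0.0299). Egr3, the fourth EGR gene, was at -0.35 ± 0.11 (limma adjusted p = 0.056). In the list of effectors, 4 of 30 were called lower and 1 was called higher. Rgs2 fell by 0.35 and Rgs4 by 0.31, both of which speed up G protein inactivation. Homer1, whose short form is activity-induced, fell by 0.36, and Dusp14 fell by 0.28, with limma's adjusted p of these 4 genes between 0.0202 and 0.0306. Plk2, a kinase that weakens overactive synapses, rose by 0.20 ± 0.05 (SE, limma adjusted p = 0.0179). Their within-group SDs on the log2 scale ran from 0.07 (Plk2) to 0.27 (Ier5), below the 0.32 of Egr4. The shares of the lists that were called, 3 of 22 and 5 of 30, stand beside 10.8% of all genes. With KO-Veh replicate 3 left out, 1 of the 22 (Ier5, -0.61 ± 0.12) and 1 of the 30 (Plk2, 0.21 ± 0.05) were called, beside 3.94% of all genes, and the other 6 kept their direction without passing limma's test.

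Genes downstream and upstream were described in the same way. Of 20 late response genes, 2 were called lower in KO mice over both treatments, a share no higher than the 10.8% of all genes called. Pcsk1, a prohormone convertase, fell by 0.26 (SE 0.07, limma adjusted p = 0.0257). Nrn1, a synaptic growth protein, fell by 0.16 (SE 0.04, limma adjusted p = 0.031). Bdnf, a target of Npas4 and CREB singled out after its values were seen, was at -0.12 ± 0.09 (limma adjusted p = 0.41). The median likeness of the late genes was 0.01, with none above 0.8. Of 31 upstream regulators, 5 were called higher in KO mice, with limma's adjusted p between 0.0158 and 0.0323. They were Mrtfa (0.26), Mef2a (0.22), Rps6ka5 (0.32), Ep300 (0.27) and Mef2d (0.14). The MAP kinase kinase gene Map2k2 fell by 0.26 (SE 0.07, limma adjusted p = 0.0258). Mrtfa encodes a coactivator of SRF, the Mef2 genes encode MADS-box transcription factors, and Rps6ka5 and Ep300 encode enzymes that modify histones. When the same mouse, KO-Veh replicate 3, was left out, none of the 20 late genes and 2 of the 31 upstream genes (Mrtfa, 0.27 ± 0.06, and Mef2a, 0.20 ± 0.05) were called, beside 3.94% of all genes. Srf itself, singled out in the same way, was at -0.21 ± 0.08 (limma adjusted p = 0.085). The median likeness of the upstream list was -0.34, so most of its genes tended to be higher in mice with lower immediate early gene values. Between the mean deviations of the list and of the 10 genes, r was -0.518 (permutation test, adjusted p = 0.170). It was -0.380 without the 2 farthest mice. The mice also differ in genotype, and its part in this relation was not tested.

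Heat shock genes are induced rapidly by a separate factor, HSF1. Of 7 such genes, 6 were called lower in KO mice over both treatments, beside 10.8% of all genes called in either direction. Hsph1 fell by 0.60 (SE 0.13, limma adjusted p = 0.0132), Hspa1b by 0.51 (SE 0.12, 0.0212), and Hspa8, the constitutive member, by 0.24 (SE 0.04, 0.00815), with limma's adjusted p in parentheses. Hspb1, Hspa1a and Dnajb1 fell by 0.45, 0.37 and 0.20. In the fit without KO-Veh replicate 3, 4 of the 7 were called (Hspa1a, Hspa1b, Hsph1 and Hspa8), beside 3.94% of all genes, and Hspb1 (-0.38 ± 0.14) and Dnajb1 (-0.18 ± 0.06) were not. Hspa1a and Hspa1b are near-identical genes, and reads shared between them could have been split by the authors' estimation. Of 10 glucocorticoid-responsive genes 1 was called, and of 14 clock genes 1, shares no higher than that of all genes. Fkbp5, the stress-hormone co-chaperone, rose by 0.65 (SE 0.12, limma adjusted p = 0.009). It was at 1077 ± 166 normalized counts (SD, n = 3) in WT-Veh, 1434 ± 139 in WT-Mem, 1589.8 ± 174 in KO-Veh and 2457 ± 779 in KO-Mem. Tsc22d3, of the same list, went the other way, at a log2 fold change of -0.37 (limma adjusted p = 0.0704). The clock gene Bhlhe41 rose by 0.21 (SE 0.06, limma adjusted p = 0.0432), and Per2, which is also an early gene, was at -0.37 ± 0.12 (limma adjusted p = 0.0561). Fkbp5 was still called without that mouse (0.62 ± 0.13), and Bhlhe41 was not (0.20 ± 0.07). The median likeness was 0.503 for the heat shock, -0.223 for the glucocorticoid and -0.195 for the clock list.

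In the pairwise comparisons, calls from these lists were made in KO-M/WT-V only. That comparison called 3.37% of 17662 genes, whereas each other pairwise comparison called at most 0.068% of all genes. Fkbp5 (1.15 ± 0.19), Plk2 (0.34 ± 0.07) and Mrtfa (0.38 ± 0.09) were higher in KO-Mem than in WT-Veh, and Hsph1 (-0.84 ± 0.18), Ier5 (-0.69 ± 0.16) and Map2k2 (-0.39 ± 0.09) were lower, with limma's adjusted p between 0.0272 and 0.0479. Under memantine over both genotypes, no gene of any list passed limma's test. The effector nearest to the threshold was Plk2, at a log2 fold change of 0.14 ± 0.05 (SE, limma adjusted p = 0.437). Of the transcription factors, Npas2 (log2 fold change 0.20 ± 0.07) and Maff (0.59 ± 0.21) came nearest, and of the late genes Cort (0.52 ± 0.16) and Vgf (0.23 ± 0.08), with limma's adjusted p between 0.437 and 0.492.

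**Figure D5:**
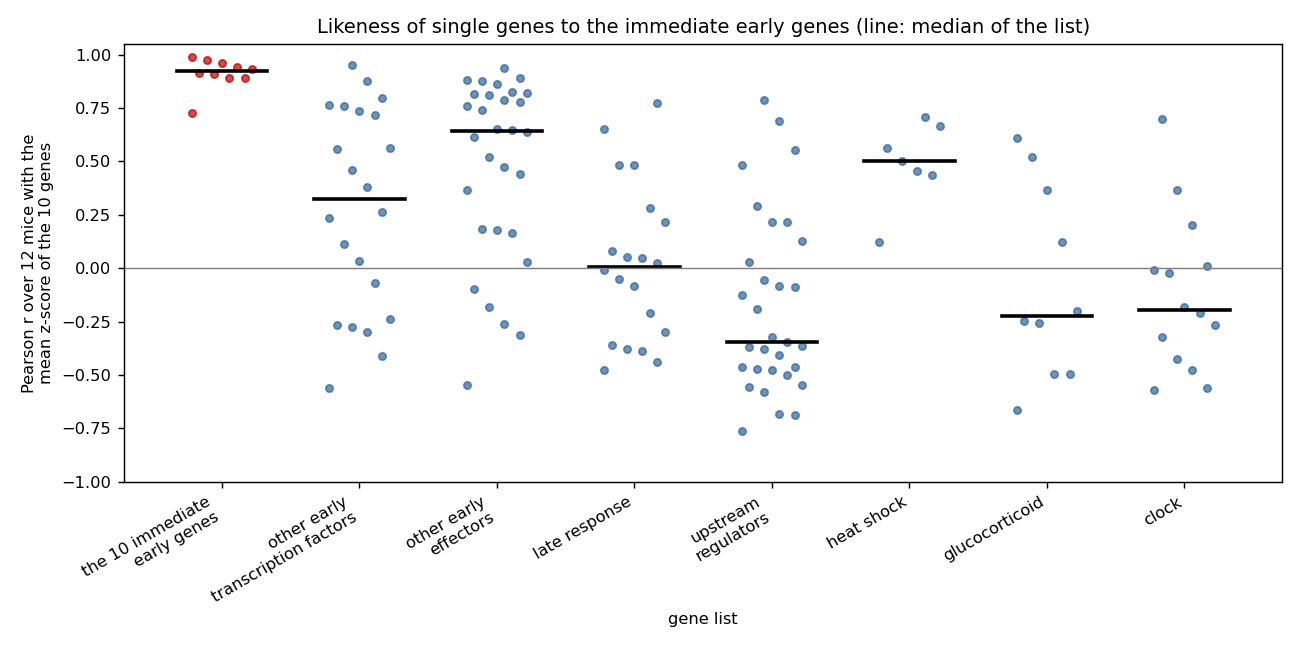
Pearson's r over 12 mice between single genes (points) and the mean z-score of the 10 immediate early genes, for 8 gene lists (horizontal axis; lines mark medians). The early effectors reach 0.936 with a median of 0.642, and the upstream regulators have a median of -0.344.

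Outside all lists and at a mean of 100 or more, the 10 genes most like the members were Mycn, Aldh4a1, Midn, Gorasp1, Mknk2, Tmem205, Gm44597, Ino80e, Prox2os and Ephb3. Their r over the 12 mice ran from 0.890 (Mycn, rho 0.895) to 0.832 (Ephb3, rho 0.860). Mycn, a MYC-family transcription factor gene, had 286, 329.8 and 359 normalized counts in WT-Veh, 385, 375 and 366 in WT-Mem, 350.3, 287 and 241 in the vehicle-treated KO mice and 192, 289.8 and 359 in KO-Mem. Midn, which encodes midnolin, a protein that takes immediate early proteins to the proteasome, followed Aldh4a1 in that order (r = 0.857, rho 0.769). It had 1829.8, 2142 and 2347 in WT-Veh, 2475, 1980.4 and 2444 in WT-Mem, 2503, 2022 and 1544 in the vehicle-treated KO mice and 1827, 1948 and 2259 in KO-Mem. Both genes were low in KO-Veh replicate 3 and KO-Mem replicate 1 and ranged by 2.00-fold and 1.62-fold over the mice, less than any member. These genes were picked for their r, so the r is a description.

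The mean deviation of the 10 genes in each mouse was also set beside other properties of the mice. It followed the mean deviation of the early effectors (r = 0.969, rho 0.951, and r = 0.964 without the 2 farthest mice) and of the other early transcription factors (r = 0.813, rho 0.678, and 0.614 without 2 mice). Among 19 marker lists it was nearest to choroid plexus markers (r = 0.776, rho 0.657, and 0.504 without 2 mice). All 6 of those markers were present in every mouse, and they summed to 12720 to 14958 normalized counts in WT-Veh, 13203 to 14755 in WT-Mem, 11287 to 15751 in KO-Veh and 7389 to 14322 in KO-Mem. Permutation tests adjusted over 29 relations gave p = 0.00029 by r and 0.00058 by rho for the effectors. For the other transcription factors they gave 0.0178 and 0.231, and for choroid plexus markers 0.0323 and 0.231. Neither of these passed by rho. Excitatory neuron markers gave r = 0.652, which dropped to 0.143 without 2 mice, and cerebellar markers gave -0.515, which became 0.353. Relative depth, an indirect measure, gave r = -0.275 (rho -0.119). These values describe 12 mice that also differ in genotype, and the part of tissue content in the levels of the 10 genes was not tested.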

How the data were processed

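RNA was measured by poly-A RNA-Seq in 12 mice. The authors estimated transcript abundance with Salmon 1.1.0 on GRCm38 with GC bias correction and imported it by gene with tximport. The deposited signal values are normalized counts, that is, estimated counts that the authors normalized with DESeq2 1.26.0 in R 3.6.2, versions per the submitters' processing notes. Whole reads could not be recovered: 10.8% to 40.3% of low values were whole within 0.05. Of 19312 gene IDs, 19295 matched GENCODE M21. The number of columns without a sample was 0.

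Genes with a mean of at least 10 were tested with limma 3.58.1 (R 4.3.3; eBayes with trend) on log2(value + 1), which understates changes of low genes. Each pairwise comparison used its 6 mice. Genotype, memantine and interaction used 12. Adjusted p-values (Benjamini-Hochberg, all genes tested) under 0.05 were called. Scripts were tested on simulated data. The mice are separate animals.

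The 10 members and all lists were chosen with earlier results of these data known. From the other lists, genes called in any comparison and up to 4 per list with the smallest p for genotype or memantine are named, and outside the lists the 10 genes with the highest r to the members. Likeness is r of log2 values to the mean z-score of the members. Correlations between members used 100000 permutations. Alternatives were the pseudocount (0.5 or 5), the filter (none or 50), rescaling, no trend, the replicate block, 12 mice in 1 fit and leaving out each mouse.

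Replicate numbers did not pair the mice: over 18 same-number pairs of groups, r of the deviations from the group means ran from -0.175 to 0.080, all below 0.1.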

Additional observations from a re-analysis of the deposited data

How the results depend on the processing

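All 10 genes were far above the filter on low values in every mouse. Under the other pseudocounts, filters, rescalings, the fit without trend and the fit of 12 mice, 0 of the 10 genes were called in every comparison, except that with the filter at a mean of 50, 1 gene (Egr4) was called in the genotype comparison. The log2 fold change of Egr4 in KO-M/V was -0.000911 with values rescaled to the same sum, a change of sign from a value near 0. The replicate block, although the numbers did not pair the mice, gave 2 calls in KO-M/WT-V (Fos and Arc), where 5.66% of all genes passed, and 0 members elsewhere. The cause of these changes was not tested.

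Without KO-Veh replicate 3, an alternative added for the other lists after seeing the data, genotype calls went from 3 to 1 among the other transcription factors, 5 to 1 among the effectors, 2 to 0 among the late, 6 to 2 among the upstream, 6 to 4 among the heat shock and 1 to 0 among the clock genes, and stayed at 1 for the glucocorticoid list.

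Leaving out 1 mouse at a time, the number of members called ran from 0 to 7 in Mem-K/W, from 0 to 2 in KO-M/WT-V and from 0 to 5 for genotype, and was 0 in the other comparisons. Log2 fold changes whose sign changed without 1 mouse, lowest to highest, were as follows. In Veh-K/W, Junb -0.60 to 0.13, Egr2 -0.56 to 0.13, Nr4a1 -0.77 to 0.13 and Btg2 -0.20 to 0.47. In Mem-K/W, Btg2 -0.45 to 0.031. In KO-M/V, Fos -0.42 to 0.36, Fosb -0.00883 to 0.62, Junb -0.21 to 0.38, Egr1 -0.35 to 0.23, Egr2 -0.89 to 0.10, Egr4 -0.26 to 0.19, Arc -1.01 to 0.0808, Npas4 -0.25 to 0.40, Nr4a1 -0.51 to 0.27 and Btg2 -0.27 to 0.10. In WT-M/V, Fos -0.0336 to 0.55, Junb -0.15 to 0.58, Arc -0.20 to 0.90, Npas4 -0.32 to 0.41 and Nr4a1 -0.082 to 0.76. In KO-M/WT-V, Fosb -0.27 to 0.15, Junb -0.47 to 0.26, Npas4 -0.65 to 0.0872 and Btg2 -0.24 to 0.42. In WT-M/KO-V, Btg2 -0.0718 to 0.41. In genotype over both treatments, Btg2 -0.24 to 0.0797. In memantine over both genotypes, Fos -0.0352 to 0.31, Egr1 -0.0435 to 0.21, Egr2 -0.13 to 0.31, Arc -0.31 to 0.26, Npas4 -0.0931 to 0.28, Nr4a1 -0.0894 to 0.34 and Btg2 -0.0104 to 0.29. In the interaction, Fos -0.70 to 0.0827, Fosb -0.47 to 0.16, Junb -0.45 to 0.27, Egr1 -0.55 to 0.0298 and Npas4 -0.28 to 0.49.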
